A study of Mus musculus with 6 samples.

Results

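The genes described here are 49 interferon-stimulated genes, taken by symbol from a list that covers interferon transcription factors, nucleic acid sensors, antiviral effectors, the ISG15 conjugation system and interferon-inducible GTPases. All 49 were among the 51361 genes of the deposited count table, and all 49 passed the filter on low counts that left 16657 tested genes. They were measured in 6 bulk RNA-seq libraries of CD4+CD25+Foxp3+ regulatory T cells (Tregs), the lymphocytes that restrain immune responses. The groups were brain Tregs of mice after transient middle cerebral artery occlusion (tMCAO brain), blood Tregs of mice with the same operation (tMCAO blood) and blood Tregs of sham-operated mice (sham blood), with 2 libraries each. The occlusion, a model of ischaemic stroke, lasted 60 min, and cells were taken 14 days after it. No day is recorded for sham blood in the sample annotation used here, so whether sampling times matched is not known. All mice, controls included, were 9-week-old C57BL/6N males with the transgene Tg(Foxp3-DTR/EGFP)23.2Spar, in which the Foxp3 promoter drives a diphtheria toxin receptor fused to green fluorescent protein. Each library came from 500 to 1000 sorted cells. Whether replicates were taken from separate animals is not stated in the labels, and the p-values therefore reflect spread among libraries, which may be technical.

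Cells sense viral or self nucleic acid with receptors such as RIG-I, MDA5 and cGAS and answer by secreting type I interferon. Interferon binds its receptor, activates JAK kinases and STAT proteins, and with IRF9 forms a complex that binds the interferon-stimulated response element (ISRE) in the promoters of its target genes. Interferon gamma acts through a separate receptor, and its target genes carry gamma-activated sites (GAS). In the ischaemic brain, microglia and infiltrating leukocytes are known to express interferon-stimulated genes.

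Promoter stretches of 6 genes are shown: Isg15, Ifit1 and Bst2 because they rose in tMCAO brain in a comparison below and hold motifs that interferon factors bind, and Rsad2, Isg20 and Ube2l6 because their levels were highest in sham blood. RefSeq promoter windows of GRCm38.p6, from 250 bases before to 50 after a gene's start, were matched for 37 of the 49 genes. The ISRE core, GAAA then any 2 bases then GAAA, searched on both strands (TTTC, 2 bases, TTTC on the other), was found in 20 of the 37 (54.1%) and in 3.99% of 27025 genes with such a window. The GAS motif, TTCNNNGAA with N any base, which reads the same on both strands, was found in 11 (29.7%) and in 9.55% of all. Each stretch is given 5′ to 3′ in the gene's direction, with ISRE core and GAS matches in capitals, which merge where matches overlap. The regions are chr4:156200819-156200968 on the minus strand for Isg15, chr19:34640721-34640870 on the plus strand for Ifit1, chr8:71537473-71537622 on the minus strand for Bst2, chr12:26456453-26456602 on the minus strand for Rsad2, chr7:78913274-78913423 on the plus strand for Isg20, chr2:84798678-84798827 on the plus strand for Ube2l6.
Isg15: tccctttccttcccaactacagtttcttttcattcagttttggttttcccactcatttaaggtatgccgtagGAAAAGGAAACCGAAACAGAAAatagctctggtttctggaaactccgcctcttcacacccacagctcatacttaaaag
Ifit1: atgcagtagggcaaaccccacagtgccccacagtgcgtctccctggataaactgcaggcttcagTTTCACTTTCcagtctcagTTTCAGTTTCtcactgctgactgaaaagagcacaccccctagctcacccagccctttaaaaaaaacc
Bst2: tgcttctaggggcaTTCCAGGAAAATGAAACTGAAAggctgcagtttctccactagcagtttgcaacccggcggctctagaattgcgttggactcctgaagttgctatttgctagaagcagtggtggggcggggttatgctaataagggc
Rsad2: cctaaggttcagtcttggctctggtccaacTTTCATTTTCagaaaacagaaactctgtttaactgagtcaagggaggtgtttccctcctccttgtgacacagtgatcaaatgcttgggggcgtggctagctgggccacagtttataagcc
Isg20: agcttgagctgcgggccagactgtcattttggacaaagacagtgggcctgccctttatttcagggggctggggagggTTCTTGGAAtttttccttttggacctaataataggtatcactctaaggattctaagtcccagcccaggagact
Ube2l6: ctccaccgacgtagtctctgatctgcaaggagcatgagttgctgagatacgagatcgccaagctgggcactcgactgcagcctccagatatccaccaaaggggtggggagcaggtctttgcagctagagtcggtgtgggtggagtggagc
The Isg15 stretch held 3 overlapping ISRE matches, Ifit1 held 2, Rsad2 held 1, Isg20 held 1 GAS match and Ube2l6 held neither motif. Bst2 held 2 ISRE matches that overlap each other, and only the first of them also overlaps its 1 GAS match. Among the 14 genes called in a comparison below, 11 had a window and 4 of these held an ISRE core, against 16 of 26 among the other genes. Genes without a matched window were Dhx58, Zbp1, Oas2, Mx1, Mx2, Usp18, Parp9, Parp14, Gbp4, Iigp1, Ifi27l2a and Rtp4.

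Library totals ranged from 14348179 to 24460894 counts, and levels are given as CPM, counts scaled to the TMM-adjusted library total, with replicate 1 before replicate 2. The lowest count of any of the 49 genes in any library was 21. The defining genes of the sorted cells were low outside sham blood. Foxp3, the Treg transcription factor, stood at 0.726 and 19.6 CPM in the brain, 0.538 and 5.18 in blood after tMCAO and 50.1 and 60.7 in sham blood. Replicate 1 of tMCAO brain and of tMCAO blood, below 1 CPM, thus went against their label, and results are also given without both. The share of the 18 T cell identity genes was 0.0307% and 0.158% of counts in the brain, 0.0699% and 0.468% in blood after tMCAO and 0.932% and 0.904% in sham blood, and that of the 9 Treg core genes was 0.0115% and 0.0636% of counts in the brain, 0.0177% and 0.120% in blood after tMCAO and 0.255% and 0.261% in sham blood. Markers of other cells differed between the groups as well. The 16 microglia markers made up 2.44% and 2.04% of counts in the brain, 0.517% and 0.319% in blood after tMCAO and 0.0343% and 0.0579% in sham blood. Sall1, which defines microglia, was at 0 in all 4 blood libraries. In blood after tMCAO, C1qb alone took 55.5% and 44.5% of the list's counts, and the list split by direction against sham blood. Csf1r, Trem2, C1qa and C1qc were higher and P2ry12 and Gpr34 lower there (edgeR adjusted p under 0.05). The 16 monocyte and macrophage markers made up 3.45% and 1.49% of counts in the brain, 2.93% and 1.26% in blood after tMCAO and 0.751% and 0.596% in sham blood. Genes of red cells (13 measured) made up 0.000383% and 0.000356% of counts in the brain, 0.108% and 3.82% in blood after tMCAO and 15.3% and 16.7% in sham blood. The other 9 marker lists took at most 0.789% of any library, which was for neutrophil genes in tMCAO blood replicate 2. In bulk samples, fewer cells of a type and less RNA per cell cannot be told apart, and the tissue a library came from cannot be told apart from how that tissue was processed.

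**Figure D1:**
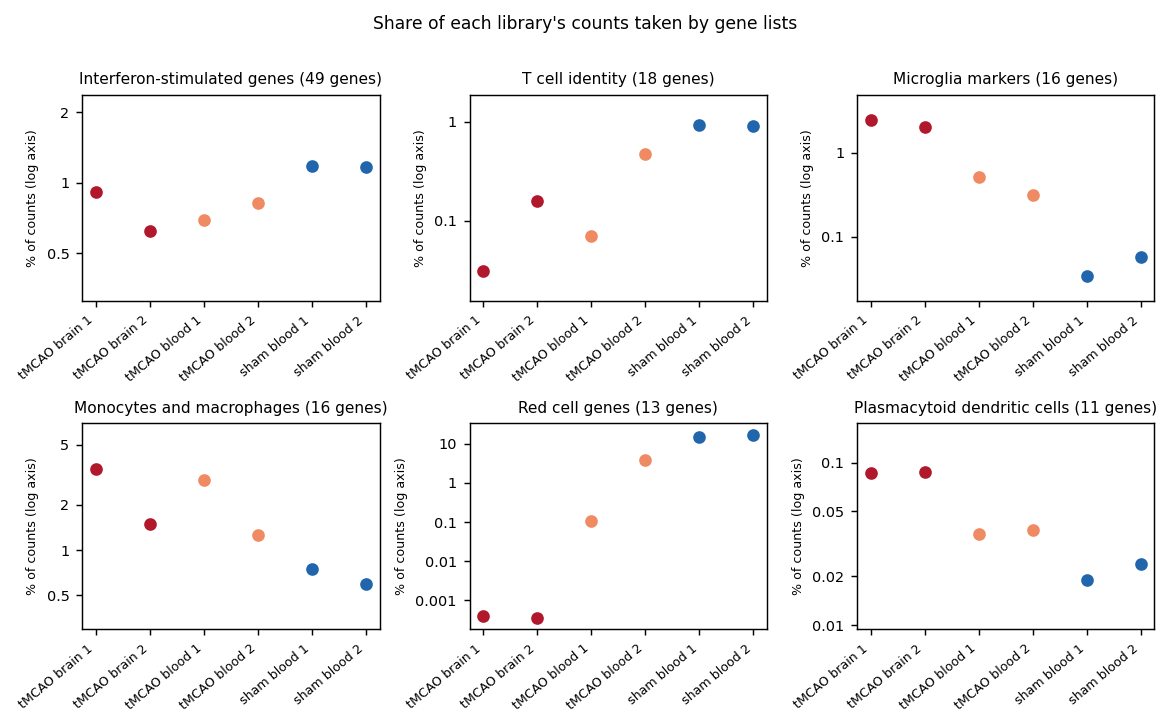
Share of each library's counts (%, log axes) taken by the 49 interferon-stimulated genes and by 5 marker lists, 1 point per library. The interferon-stimulated genes stay between 0.626% and 1.19%, while T cell, microglia and red cell genes differ far more between libraries; the plasmacytoid dendritic cell list includes Bst2, which is also one of the 49.

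Summed, the 49 genes made up 0.914% and 0.626% of counts in the brain, 0.697% and 0.819% in blood after tMCAO and 1.19% and 1.17% in sham blood. The Wilson 95% interval of each share reached at most 0.532% of the share to either side, which covers counting error only. Both sham blood libraries were above all others, and the tMCAO brain and tMCAO blood libraries overlapped. As a share of the raw total, taking out Ifi27l2a ended that overlap by a narrow margin. tMCAO brain then stood at 0.845% and 0.563%, and blood after tMCAO at 0.557% and 0.559%. In CPM the overlap remained. The 49 genes summed to 6260 CPM in brain replicate 2, of which Ifi27l2a made up 635. They summed to 7247 CPM in tMCAO blood replicate 1, of which Ifi27l2a made up 1453. Without Ifi27l2a, brain replicate 2 was thus still below tMCAO blood replicate 1 on that scale. The gene with the most counts differed by group. It was Lgals3bp, a secreted glycoprotein that binds galectins, in tMCAO brain, Ifi27l2a in tMCAO blood, and Ube2l6, the E2 enzyme that transfers ISG15, in sham blood. Per kilobase of exon, Ifi27l2a, a small interferon-induced protein, had the highest level in every group, with 1770.4 and 1372 CPM per kb in the brain, 3138 and 4658 in blood after tMCAO and 3775 and 2199.5 in sham blood. In tMCAO brain it was followed by Lgals3bp with a mean of 526 CPM per kb and Bst2 with 392 CPM per kb. In sham blood the next were Ube2l6 with 1290.2 CPM per kb, Isg20 with 612 CPM per kb and Rsad2 with 309 CPM per kb. In tMCAO blood the second was Gbp2 with 150.1 CPM per kb. At the low end, Gbp5, Oas3 and Gbp4 were lowest in tMCAO brain at 2.94, 5.95 and 6.67 CPM per kb. Ifi44 and Mx2 were lowest in sham blood at 0.849 and 0.933 CPM per kb.

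**Figure D2:**
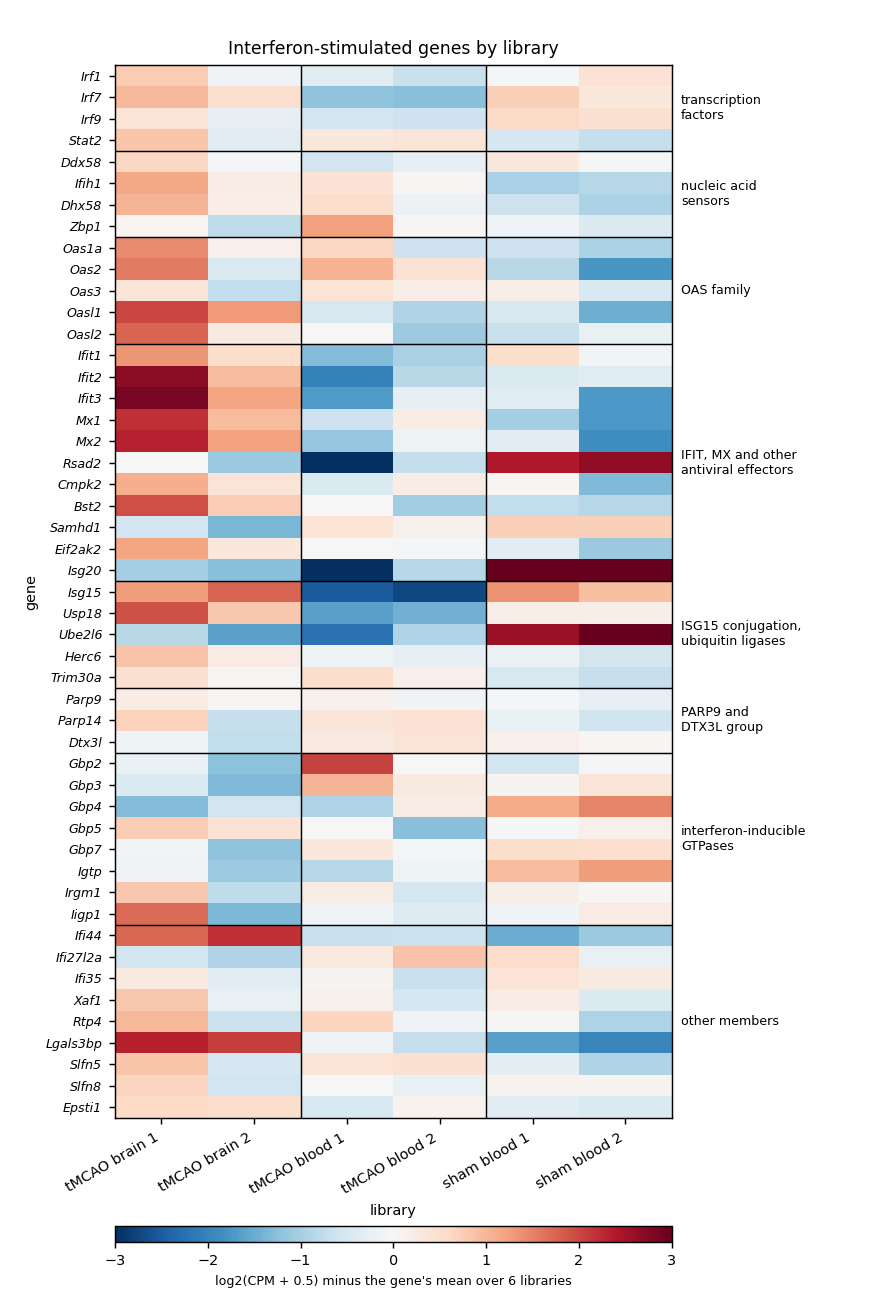
Levels of the 49 genes in each library, as log2(CPM + 0.5) minus the gene's mean over the 6 libraries, in role groups from top to bottom (colours end at 3 in either direction). Ifit2, Ifit3, Mx1 and Mx2 are darkest red in tMCAO brain replicate 1, while Rsad2, Isg20 and Ube2l6 are red in sham blood alone.

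The 2 libraries of tMCAO brain differed across most of these genes. Replicate 1 was above replicate 2 for 46 of 49 genes, beside 49.4% of all tested genes, with a median difference of 0.89 in log2(CPM + 0.5). The 3 exceptions were Isg15, Gbp4 and Ifi44. The difference was widest for Iigp1, an immunity-related GTPase, at 3.06 (276 and 32.6 CPM). In these libraries, in the same order, the share of monocyte and macrophage markers was 3.45% and 1.49%, with Lyz2 at 73.1% and 56.95% of that list. Neutrophil genes were at 0.175% and 0.0249%, platelet genes at 0.0512% and 0.00662% and microglia markers at 2.44% and 2.04%. Other lists ran the other way, such as T cell identity genes (0.0307% and 0.158%), B cell genes (0.0197% and 0.156%) and natural killer and CD8 T cell genes (0.0359% and 0.221%). The part of any list in the gap was not tested. In tMCAO blood, replicate 1 was above replicate 2 for 29 of 49 genes, beside 51.1% of all tested genes. The differences ran from -2.49 for Rsad2 to 2.05 for Gbp2, a guanylate-binding GTPase. Sham blood libraries were closer, with 35 of 49 genes higher in replicate 1, beside 48.5% of all tested genes, and 4 genes more than 2-fold apart.

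**Figure D3:**
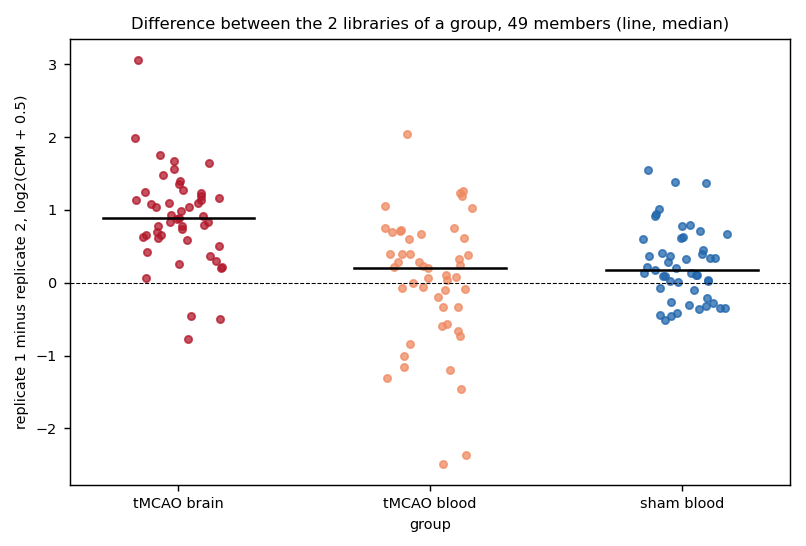
Difference between the 2 libraries of each group (replicate 1 minus replicate 2, log2(CPM + 0.5)) for the 49 genes, 1 point per gene, with the median as a line. In tMCAO brain 46 of 49 points lie above 0, with a median of 0.89, while in tMCAO blood the points lie on both sides.

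The 3 comparisons of the groups were fitted, and they share libraries: tMCAO blood and sham blood each enter 2 of them, and so does tMCAO brain, so their values stand side by side without a test of overlap. Between tMCAO brain and tMCAO blood, 7 of the 49 genes rose and 0 fell, at an edgeR adjusted p under 0.05. Of all tested genes 3.53% rose and 1.37% fell (4.9% in all). The 7 were Irf7, Oasl1, Ifit1, Isg15, Usp18, Ifi44 and Lgals3bp. The 49 genes had a median log2 change of 0.54, where all tested genes had 0.06. Both brain libraries were above both tMCAO blood libraries for 21 of the 49 genes and below for 6, beside 31.4% and 25.9% of all tested genes. An unadjusted p under 0.05 was found for 20 of the 49, beside 28% of all tested genes. The DESeq2 Wald test called 13 higher and 4 lower, beside 12.8% and 8.34% of all genes.

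Of the 4 transcription factors, Irf7, the factor that amplifies type I interferon transcription, was at 456 and 323 CPM in the brain, 100.1 and 97.6 in blood after tMCAO and 381 and 289.8 in sham blood. It was lower in both tMCAO blood libraries than in the other 4, which overlapped. Irf7 rose 3.94-fold in tMCAO brain (log2 change 1.98 ± 0.33, edgeR adjusted p = 0.0341, where ± is the standard error). Irf1, which acts downstream of interferon gamma, stood at 525 and 283 CPM in the brain, 246 and 196 in blood after tMCAO and 303 and 418 in sham blood and did not pass (edgeR adjusted p = 0.216). None of the 4 nucleic acid sensors passed. Of the 5 OAS family genes, which encode oligoadenylate synthetases and their relatives, 1 passed. Oasl1, a relative without synthetase activity that restrains Irf7 translation, was at 70.7 and 42.2 CPM in the brain, 12.1 and 9.02 in blood after tMCAO and 12.5 and 5.91 in sham blood. Both brain libraries stood above the 4 blood libraries, which overlapped, and the rise was 5.36-fold (log2 change 2.42 ± 0.48, edgeR adjusted p = 0.0466).

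Of the 11 IFIT, MX and other antiviral effectors, 1 passed. Ifit1, which binds viral RNA that lacks a normal cap, was at 136 and 78.5 CPM in the brain, 21.5 and 27.3 in blood after tMCAO and 78.1 and 51.4 in sham blood. tMCAO blood was low and the other 2 groups came close to each other without overlap. Ifit1 rose 4.39-fold (log2 change 2.13 ± 0.39, edgeR adjusted p = 0.0393). Its neighbours on chromosome 19 had wider gaps and did not pass. Ifit2 was at 452 and 134 CPM in the brain, 16.6 and 38.9 in blood after tMCAO and 51.4 and 54 in sham blood, and missed the threshold narrowly (log2 change 3.40 ± 0.70, edgeR adjusted p = 0.0503). Ifit3 was at 321 and 100.3 CPM in the brain, 13.1 and 37 in blood after tMCAO and 34.1 and 12.9 in sham blood, with a wider standard error (log2 change 3.07 ± 0.83, edgeR adjusted p = 0.08). In both, brain replicate 1 was over 3 times replicate 2.

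The ISG15 system gave the largest change. ISG15 is a ubiquitin-like protein that is attached to other proteins, and Usp18 both removes it and blocks signalling from the interferon receptor. Isg15 (chromosome 4, 156199424 to 156200818, GRCm38, minus strand) was at 30.2 and 42.9 CPM in the brain, 1.78 and 1.45 in blood after tMCAO and 32.3 and 23.5 in sham blood. Both tMCAO blood libraries were lower than the other 4 by more than 10 times, and tMCAO brain and sham blood overlapped. Isg15 rose 22.6-fold in tMCAO brain (log2 change 4.50 ± 0.39, edgeR adjusted p = 0.0148). Usp18 was at 273 and 128 CPM in the brain, 23.1 and 26.5 in blood after tMCAO and 83.2 and 81.6 in sham blood, with no overlap between any 2 groups and the highest value in brain replicate 1. It rose 8.09-fold (log2 change 3.02 ± 0.42, edgeR adjusted p = 0.0258). The ligases Trim30a (304 and 227 CPM in the brain, 323 and 249 in blood after tMCAO and 159 and 138 in sham blood) and Herc6 did not pass.

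Among the 9 other genes, 2 passed. Ifi44, an interferon-induced protein with a GTP-binding motif, was at 45.7 and 62.8 CPM in the brain, 8.34 and 8.37 in blood after tMCAO and 4.49 and 5.91 in sham blood. Both brain libraries were more than 5 times any blood library. The rise over tMCAO blood was 6.49-fold (log2 change 2.70 ± 0.33, edgeR adjusted p = 0.0215). Lgals3bp (chromosome 11, 118392751 to 118402092, GRCm38, minus strand) was at 1632 and 1361 CPM in the brain, 302 and 199 in blood after tMCAO and 105 and 81.7 in sham blood, in 3 separate steps, and rose 5.97-fold (log2 change 2.58 ± 0.38, edgeR adjusted p = 0.0271). The 3 genes of the PARP9 and DTX3L group, which take part in ADP-ribosylation and ubiquitination, and the 8 interferon-inducible GTPases had no call in this comparison. Beside these rises, the share of microglia markers was 2.44% and 2.04% in the brain against 0.517% and 0.319% in blood of the same model. Markers of conventional dendritic cells made up 0.0734% and 0.156% against 0.00564% and 0.0148%, with 4 of 11 higher at the threshold (Flt3, Cd209a, Itgax and Fscn1) and a median log2 change of 3.85. Ccr7 took 66.8% and 48.0% of that list's counts in the brain. In sham blood the list made up 0.0561% and 0.0747%, of which Ccr7 took 89.7% and 89.4%. The part of either marker list in the rises was not tested. All 7 calls were lost without sham blood replicate 1, without sham blood replicate 2 and with the 4 libraries compared fitted alone, and of the 7 there remained 3 without tMCAO brain replicate 1, 2 without tMCAO brain replicate 2, 2 without tMCAO blood replicate 1 and 1 (Isg15) without tMCAO blood replicate 2. With T cell identity genes as the scale, which moved the median of all genes by 1.04 in log2, the 7 log2 changes were larger (3.15 to 5.31, or 2.05 to 4.21 relative to that median) and 0 of the 49 genes passed, beside 2.27% of all genes higher and 0.204% lower (9 at an unadjusted p under 0.05, beside 10.8% of all genes). Without replicate 1 of tMCAO brain and of tMCAO blood, 20 genes passed (11 higher, 9 lower), beside 11.9% and 8% of all genes. Each of these groups then has 1 library and the sham blood pair alone sets the spread, so that count says nothing of how stable the calls are.

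**Figure D4:**
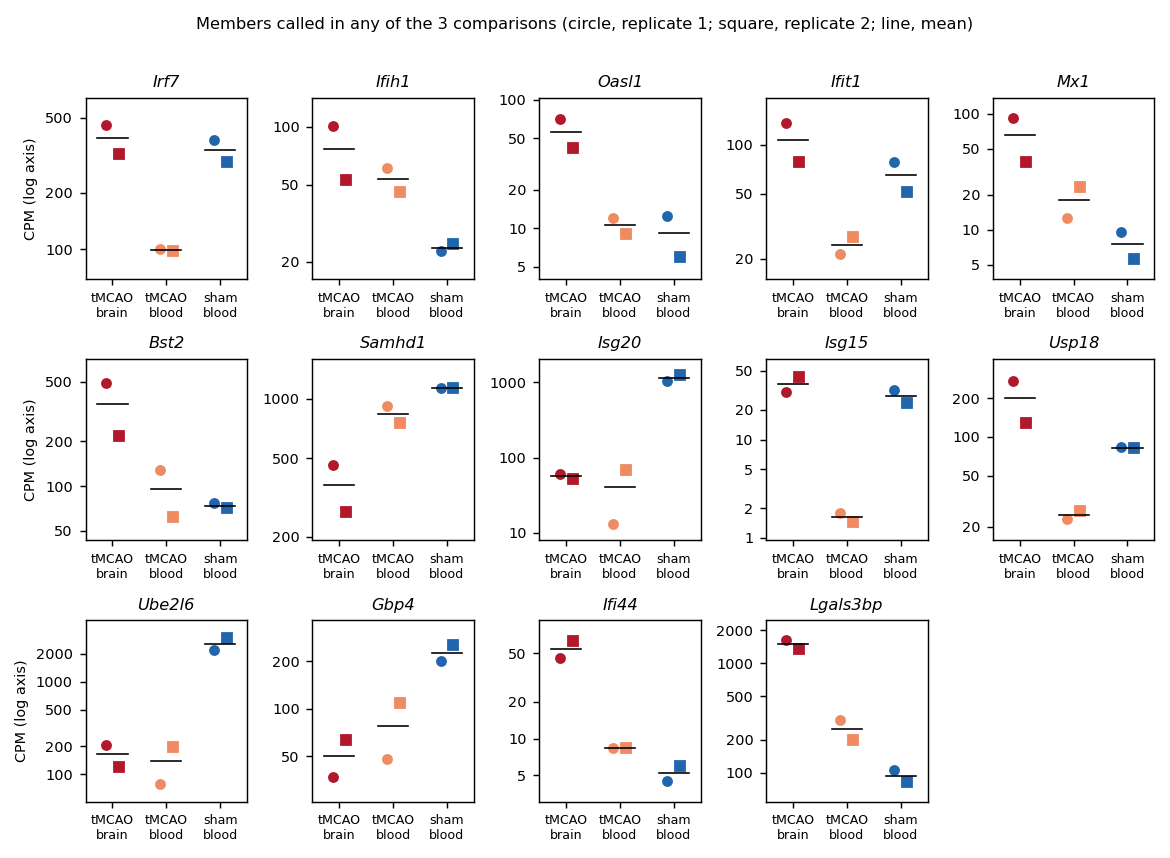
CPM (log axes, scaled separately for each gene) of the 14 genes called in any of the 3 comparisons, with 1 point per library (circle, replicate 1; square, replicate 2) and the group mean as a line. Isg15, Irf7, Usp18 and Ifit1 are lowest in tMCAO blood, Ifi44 and Lgals3bp highest in tMCAO brain, and Isg20 and Ube2l6 highest in sham blood.

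Between tMCAO blood and sham blood, the comparison of the operations within blood, 4 of the 49 genes fell and 0 rose. Of all tested genes 3.15% fell and 4.33% rose (7.48% in all). The 4 were Irf7, Isg20, Isg15 and Ube2l6. The median log2 change of the 49 genes was 0.16, where all tested genes had 0.11. Both tMCAO blood libraries were above both sham blood libraries for 15 genes and below for 18, beside 33.6% and 30.4% of all tested genes, and 15 had an unadjusted p under 0.05, near the 29.6% of all tested genes. The DESeq2 Wald test called 3 higher and 10 lower, beside 12.9% and 10.8% of all genes. Isg15 fell 17.3-fold (log2 change -4.11 ± 0.39, edgeR adjusted p = 0.0313) and Irf7 fell 3.39-fold (log2 change -1.76 ± 0.33, edgeR adjusted p = 0.0378), with the library values given above. With T cell identity genes as the scale, which moved the median of all genes by 2.83 in log2, the Irf7 change turned to 1.14, while those of Isg15 (-1.15), Isg20 (-2.81) and Ube2l6 (-1.83) stayed below 0 and 0 of the 49 genes passed, beside 8.7% of all genes higher and 0.018% lower (16 at an unadjusted p under 0.05, beside 37.3% of all genes). Relative to the median of all genes on that scale, Irf7 was at -1.80, Isg15 at -4.10, Isg20 at -5.76 and Ube2l6 at -4.78.

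The largest fall was that of Isg20, an exonuclease that degrades single-stranded RNA (chromosome 7, 78913424 to 78920396, GRCm38, plus strand). It was at 60.9 and 52.5 CPM in the brain, 13 and 68.7 in blood after tMCAO and 1029.5 and 1245 in sham blood. Both sham blood libraries were over 10 times any other library, and the tMCAO brain values lay between those of tMCAO blood. Isg20 fell 27.8-fold (log2 change -4.80 ± 0.83, edgeR adjusted p = 0.0355). Ube2l6 (chromosome 2, 84798828 to 84810335, GRCm38, plus strand) was at 207 and 120.1 CPM in the brain, 78.7 and 196 in blood after tMCAO and 2209 and 2941 in sham blood, with both sham blood libraries again over 10 times any other. It fell 18.7-fold (log2 change -4.23 ± 0.61, edgeR adjusted p = 0.0313). Rsad2, which encodes the antiviral enzyme viperin, was at 228 and 107 CPM in the brain, 24.5 and 141 in blood after tMCAO and 1218 and 1462 in sham blood and came close to the threshold (log2 change -4.02 ± 0.90, edgeR adjusted p = 0.0503). In all 3 genes tMCAO blood replicate 1 was the lowest library.

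Red cell genes, too, were lowest of the blood libraries in tMCAO blood replicate 1 and higher in both sham blood libraries than in either after tMCAO (0.108% and 3.82% against 15.3% and 16.7%), and so were T cell identity genes (0.0699% and 0.468% against 0.932% and 0.904%). Their part in the values of Isg20, Ube2l6 and Rsad2 was not tested. Usp18 (log2 change -1.73 ± 0.40, edgeR adjusted p = 0.053) and Ifit1 (log2 change -1.41 ± 0.38, edgeR adjusted p = 0.0714) were also below sham blood in both tMCAO blood libraries without passing. Of the 5 OAS genes, Oas1a, a synthetase whose product activates RNase L, was at 216 and 89.6 CPM in the brain, 124 and 51.8 in blood after tMCAO and 52.1 and 41.6 in sham blood. Oasl2, a relative of Oasl1, was at 431 and 154 CPM in the brain, 127 and 60.5 in blood after tMCAO and 80 and 109 in sham blood. Neither passed in any comparison. The sensor gene Ddx58, which encodes RIG-I, was at 93.8 and 59.2 CPM in the brain, 40.7 and 51.4 in blood after tMCAO and 75.9 and 59.7 in sham blood. Zbp1, which senses Z-form nucleic acid, was at 97.5 and 54.7 CPM in the brain, 220.2 and 96.3 in blood after tMCAO and 84.8 and 69.2 in sham blood, with tMCAO blood replicate 1 highest. Neither of these 2 passed in any comparison. All 4 calls were lost without tMCAO blood replicate 1, without sham blood replicate 1 and without sham blood replicate 2, and Irf7 was lost without tMCAO blood replicate 2. Without replicate 1 of tMCAO brain and of tMCAO blood, 19 genes passed (8 higher, 11 lower), beside 11.2% and 10% of all genes, again with the spread set by the sham blood pair alone.

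Between tMCAO brain and sham blood, which differ in both tissue and operation, 6 of the 49 genes rose and 4 fell. Of all tested genes 8.01% rose and 2.62% fell (10.6% in all). The median log2 change was 0.56, where all tested genes had 0.09. Both brain libraries were above both sham blood libraries for 23 genes and below for 12, beside 34.9% and 29.7% of all tested genes, and 26 had an unadjusted p under 0.05, beside 30.2% of all tested genes. The DESeq2 Wald test called 15 higher and 6 lower, beside 15.6% and 8.43% of all genes. Ifi44, Lgals3bp and Oasl1 rose 10.4-fold, 16-fold and 6.14-fold (edgeR adjusted p = 0.0095, 0.00935 and 0.0278). Mx1, a gene of the dynamin-like GTPase family, was at 91.7 and 38.4 CPM in the brain, 12.7 and 23.2 in blood after tMCAO and 9.56 and 5.63 in sham blood. The groups formed 3 steps without overlap, with brain replicate 1 highest, and the rise over sham blood was 8.55-fold (log2 change 3.10 ± 0.58, edgeR adjusted p = 0.0281). Bst2, the tetherin that holds budding virus at the cell surface, was at 492 and 215 CPM in the brain, 128 and 62.4 in blood after tMCAO and 76.8 and 71.3 in sham blood. Only the brain libraries stood apart, and Bst2 rose 4.78-fold (log2 change 2.26 ± 0.53, edgeR adjusted p = 0.0478). It also marks plasmacytoid dendritic cells, whose 11 listed genes, Bst2 included, made up 0.0858% and 0.0870% of counts in the brain, 0.0365% and 0.0386% in blood after tMCAO and 0.0188% and 0.0236% in sham blood. Bst2 itself took 47.8% of the list's counts in brain replicate 1. In brain replicate 2 the largest part was Siglech, also a microglia marker, at 28.1%. Over sham blood, 9 of the 11 had a positive log2 change and 2 a negative one. The part of these cells in the rise of Bst2 was not tested. Ifih1, which encodes the RNA sensor MDA5, was at 101 and 52.9 CPM in the brain, 61.1 and 46.2 in blood after tMCAO and 22.8 and 24.6 in sham blood, with both sham blood libraries lowest, and rose 3.25-fold (log2 change 1.70 ± 0.38, edgeR adjusted p = 0.0415).

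Tissue and operation cannot be told apart in this comparison. The share of microglia markers was 2.44% and 2.04% against 0.0343% and 0.0579%, and that of red cell genes 0.000383% and 0.000356% against 15.3% and 16.7%; their part in these changes was not tested. The 4 genes that fell were Isg20, Ube2l6, Samhd1 and Gbp4. Isg20 fell 20.1-fold (log2 change -4.33 ± 0.81, edgeR adjusted p = 0.028) and Ube2l6 15.7-fold (log2 change -3.98 ± 0.61, edgeR adjusted p = 0.0175). Samhd1, a hydrolase that depletes deoxynucleotides, was at 462 and 268 CPM in the brain, 917 and 751 in blood after tMCAO and 1135 and 1132 in sham blood. Both sham blood libraries were highest and both brain libraries lowest, a fall of 3.10-fold (log2 change -1.63 ± 0.39, edgeR adjusted p = 0.0485). Gbp4, a guanylate-binding protein, was at 36.8 and 63.2 CPM in the brain, 47.9 and 108 in blood after tMCAO and 199 and 253 in sham blood and fell 4.52-fold (log2 change -2.18 ± 0.49, edgeR adjusted p = 0.0429). It overlaps Gbp8 and Gbp9 and has near-identical copies, so its reads may be shared with them. With T cell identity genes as the scale, which moved the median of all genes by 3.88 in log2, 33 of the 49 genes passed, all higher, beside 51.8% of all genes higher and 0.342% lower, and the changes of Samhd1 (2.52), Ube2l6 (0.18) and Gbp4 (1.49) turned positive, while Isg20 stayed at -0.33. Relative to the median of all genes on that scale, the 3 that turned were at -1.46, -3.80 and -2.48. All 10 calls were lost without sham blood replicate 1 and without sham blood replicate 2, 7 without tMCAO brain replicate 1 (Ifi44, Lgals3bp and Ube2l6 remained), the 4 that fell without tMCAO brain replicate 2, Ifih1 without either tMCAO blood library, and Bst2 with DESeq2 size factors. Without replicate 1 of tMCAO brain and of tMCAO blood, 26 genes passed (12 higher, 14 lower), beside 17.7% and 9.68% of all genes, with the spread set in the same way.

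**Figure D5:**
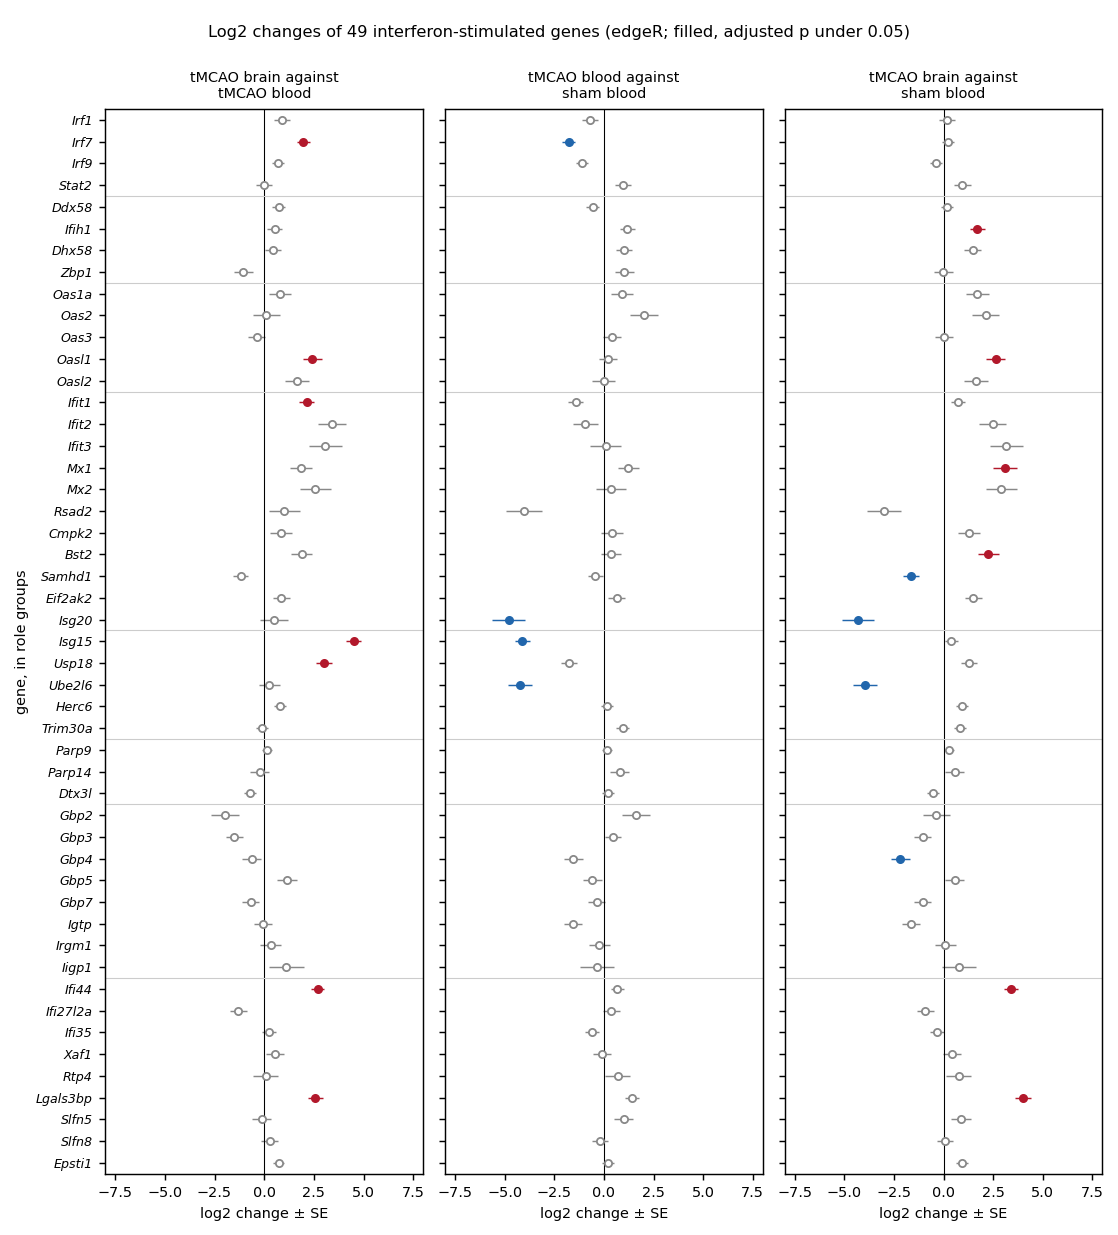
Log2 changes of the 49 genes with their standard errors in the 3 comparisons, in role groups; filled points have an edgeR adjusted p under 0.05 (red higher, blue lower). Filled points number 7 higher in the first panel, 4 lower in the second, and 6 higher and 4 lower in the third; scaled to T cell identity genes, Irf7 in the second panel and Samhd1, Ube2l6 and Gbp4 in the third turn positive.

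The 35 genes called in none of the 3 comparisons included 1 whole role group. The PARP9 and DTX3L group had 0 calls in all 3 comparisons with edgeR. Parp9, which binds ADP-ribose, was at 91.1 and 79.4 CPM in the brain, 85.1 and 71.8 in blood after tMCAO and 74.3 and 65.7 in sham blood. Parp14, a mono-ADP-ribosyltransferase, was at 200.0 and 75.9 CPM in the brain, 157 and 166 in blood after tMCAO and 107 and 80.5 in sham blood, and brain replicate 1 was its highest library. Parp9 and Dtx3l overlap on chromosome 16, so without strand-specific counting their reads may be shared. At an unadjusted p under 0.05 the group had 1 gene in the first comparison and 0 in the other two. Of the 8 GTPases that attack membranes around intracellular pathogens, Gbp4 alone was called. Gbp2 was at 130.1 and 62.8 CPM in the brain, 608 and 147 in blood after tMCAO and 102 and 145 in sham blood, with tMCAO blood replicate 1 standing apart from the other 5 libraries. Irgm1 was at 336 and 114 CPM in the brain, 224 and 136 in blood after tMCAO and 220.1 and 200.0 in sham blood, and the 3 groups overlapped. Ifi27l2a was at 819.7 and 635 CPM in the brain, 1453 and 2156 in blood after tMCAO and 1748 and 1018 in sham blood. Both brain libraries were below all 4 blood libraries, and the change from tMCAO blood did not pass (log2 change -1.31 ± 0.44, edgeR adjusted p = 0.117). Of the 35 genes, 19 are given by their range of changes: Irf9 and Stat2, both parts of the interferon-activated complex, the RIG-I relative Dhx58, Oas2, Oas3, Mx2, the kinase Eif2ak2 that halts translation, Herc6, Dtx3l, Gbp3, Gbp5, Gbp7, Igtp, Ifi35, Xaf1, Rtp4, Slfn5, Slfn8 and Epsti1. None passed in any comparison. Their log2 changes ran from -1.51 (Gbp3) to 2.56 (Mx2) between tMCAO brain and tMCAO blood, from -1.57 (Igtp) to 2.00 (Oas2) between tMCAO blood and sham blood, and from -1.63 (Igtp) to 2.91 (Mx2) between tMCAO brain and sham blood. The smallest edgeR adjusted p among them were 0.0857 for Gbp3, 0.0757 for Irf9 and 0.0671 for Mx2 in that order. A gene without a call is not shown to have equal levels.

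The rest of the pathway was described with 4 lists of 58 genes, 35 of which were tested. They gave 3 calls between tMCAO brain and tMCAO blood (3 higher), 3 between tMCAO blood and sham blood (2 higher) and 9 between tMCAO brain and sham blood (8 higher), beside 4.9%, 7.48% and 10.6% of all tested genes. Leaving out either sham blood library ended all of these calls. The 3 of the first comparison were also lost without tMCAO brain replicate 2 and without either tMCAO blood library (without tMCAO brain replicate 1, Irf8 remained), and the 3 of the second without tMCAO blood replicate 1. Of the 9 in the third, 3 remained without tMCAO brain replicate 1 and 3 without tMCAO brain replicate 2. Interferon ligands were near the limit of detection. Of 21 ligand genes 5 had any count and 1 was tested. Ifng, the type II interferon, was at 2.30 and 7.92 CPM in the brain, 1.99 and 1.45 in blood after tMCAO and 0.834 and 2.74 in sham blood and did not pass in any comparison. Of 14 interferon alpha genes 2 had a count. Ifnb1 had 2 and 17 counts in tMCAO brain and 0 in the 4 blood libraries. The 2 counts of replicate 1 are under the floor of 3 counts, so the difference rests on tMCAO brain replicate 2; a count of 0 allows 0.149 to 0.211 CPM per library.

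Of the 6 receptor genes, Ifngr2, the signalling chain of the interferon gamma receptor, was at 219 and 190.0 CPM in the brain, 84 and 55.1 in blood after tMCAO and 78.6 and 75.4 in sham blood. It rose in tMCAO brain over tMCAO blood (log2 change 1.56 ± 0.30, edgeR adjusted p = 0.0455) and over sham blood (log2 change 1.41 ± 0.30, edgeR adjusted p = 0.0387). Ifngr1, its ligand-binding chain, was at 704 and 855 CPM in the brain, 332 and 411 in blood after tMCAO and 557 and 745 in sham blood and did not pass. Nor did Il10rb, a chain of the interferon lambda receptor, at 281 and 144 CPM in the brain, 109.5 and 65.5 in blood after tMCAO and 65.3 and 68.8 in sham blood. Ifnlr1, the interferon lambda receptor, had 86 and 81 counts in the brain libraries, 2 and 0 in those of blood after tMCAO and 0 in both from sham blood. Against the floor of 3 counts tMCAO brain was at least 40.4-fold higher than sham blood (edgeR adjusted p = 0.0369). Among 19 tested signal transduction genes, Irf8, a factor of myeloid cells, was at 409 and 404 CPM in the brain, 90.7 and 72.1 in blood after tMCAO and 26.3 and 33.6 in sham blood, in 3 steps without overlap. It rose in all 3 comparisons (edgeR adjusted p = 0.0223, 0.0418 and 0.00841). Its rise in tMCAO blood over sham blood was also lost without either tMCAO brain library, with the replicate number as a block and with T cell identity genes as the scale. Sting1, the adaptor downstream of cGAS, was at 203 and 149 CPM in the brain, 54.2 and 92.7 in blood after tMCAO and 253 and 301 in sham blood and fell in tMCAO blood against sham blood (log2 change -1.91 ± 0.37, edgeR adjusted p = 0.0402). Cgas, the DNA sensor, was at 16.8 and 14.3 CPM in the brain, 17.5 and 14.1 in blood after tMCAO and 4.24 and 3.31 in sham blood. It rose over sham blood both in tMCAO blood (log2 change 2.06 ± 0.38, edgeR adjusted p = 0.0378) and in tMCAO brain (log2 change 2.04 ± 0.38, edgeR adjusted p = 0.0281).

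In tMCAO brain against sham blood, Irf5, Tlr3 and Tlr7, the last 2 being endosomal RNA receptors, also rose (log2 changes 1.92, 5.46 and 1.79; edgeR adjusted p = 0.0446, 0.0161 and 0.0185). The kinase Ikbke fell (log2 change -2.14 ± 0.38, edgeR adjusted p = 0.0252). Scaled to T cell identity genes, the changes of Sting1 in tMCAO blood and of Ikbke in tMCAO brain against sham blood turned to 0.70 and 1.80, which is -2.25 and -2.18 relative to the median of all genes on that scale, a median moved by 2.83 and 3.88. Jak1, the receptor kinase with the most counts of this list, was at 318 and 380.1 CPM in the brain, 309.7 and 358 in blood after tMCAO and 648 and 599.9 in sham blood and did not pass. Of 9 tested negative regulators, Socs3, which blocks JAK kinases, was at 91.1 and 135 CPM in the brain, 18 and 10.9 in blood after tMCAO and 31.8 and 74.8 in sham blood and rose over tMCAO blood (log2 change 2.96 ± 0.52, edgeR adjusted p = 0.0372). Irf2bp2, a corepressor that binds Irf2, rose over sham blood (log2 change 2.06 ± 0.39, edgeR adjusted p = 0.0291). The phosphatase Ptpn6 was at 539 and 391 CPM in the brain, 304 and 255 in blood after tMCAO and 201 and 256 in sham blood, and did not pass. Pias1, a SUMO ligase, was at 188 and 138 CPM in the brain, 84 and 69.9 in blood after tMCAO and 139 and 158 in sham blood, and did not pass either. Microglia markers, at 0.0343% to 2.44% of counts over the libraries, were highest in tMCAO brain as Irf8 and Tlr3 were, and their part in these values was not tested.

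Some counts may be shared with other genes, since how strand and multiply mapped reads were handled is not given in the sources used here. In the GENCODE M21 annotation of GRCm38, 8 of the 49 genes overlap another protein-coding gene; Irf7 overlaps Phrf1 and Igtp overlaps Irgm2. A stretch of at least 300 bp with at least 95% identity to another gene was found for 9 of them, among them Isg15, Ube2l6, Mx1, Mx2, Oas1a and Ifit3. For these the values are less certain.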

How the data were processed

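Bulk RNA-seq was made from 6 libraries of sorted Tregs with a SMART-Seq ultralow input kit and Nextera XT, sequenced as 75 bp pairs, per the labels' protocols. No molecular identifiers were used, so intervals and floors reflect counting error alone. Deposited counts per gene are whole numbers, which the authors made with STAR, HTSeq 0.11.2 and GRCm38, per the submitters' processing notes. The annotation release, strand setting and treatment of reads with several positions are not given in the sources used here. Column names of the table were read as S for sham and M for the occlusion, with the tissue and number they state.

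Genes passing filterByExpr (minimum count 10) entered edgeR 4.0.16 (R 4.3.3) with TMM scaling and its quasi-likelihood test, with all 6 libraries in 1 fit (3 residual degrees of freedom) and no covariates. P-values were adjusted by Benjamini-Hochberg over 16657 genes within each comparison (threshold 0.05). The standard error is the log2 change divided by the square root of F. The fitting steps were run on simulated counts with known changes. The spread of those counts was set and not taken from these libraries, so the run says nothing of the calls here. No libraries repeat each other: counts within a group differed with a chi-square per degree of freedom of 204, 219 and 25.3.

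The 49 genes, their role groups, 4 pathway lists and 14 marker lists were chosen with earlier results of these data known. Values in each library are given for every gene called and for the 2 of highest mean CPM in each role group. Cmpk2, Ifit2, Ifit3 and Iigp1 are also given, chosen after their values were seen. From the pathway lists, called genes and the 2 of highest mean CPM are named. Alternatives were DESeq2 size factors, no filter, at least 5 CPM in 2 libraries, the DESeq2 1.42.0 Wald test, limma-voom (limma 3.58.1), the 2 compared groups alone, the replicate number as a block, and each library left out. Chosen after seeing the data were leaving out replicate 1 of tMCAO brain and of tMCAO blood together, where Foxp3 was lowest, and scaling to 18 T cell identity genes.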

Additional observations from a re-analysis of the deposited data

How the results depend on the processing

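Calls are given in the order tMCAO brain against tMCAO blood, tMCAO blood against sham blood, and tMCAO brain against sham blood. As reported, edgeR called 7, 4 and 10 of the 49 genes, 816, 1246 and 1772 of all genes and 3, 3 and 9 of the pathway genes. With no filter there were 17, 15 and 22 of the 49 genes, 3598, 3611 and 4458 of all genes and 11, 10 and 14 of the pathway genes, and with at least 5 CPM in 2 libraries 8, 7 and 10 of the 49 genes, 1237, 1860 and 1892 of all genes and 5, 7 and 10 of the pathway genes. The DESeq2 Wald test gave 17, 13 and 21 of the 49 genes, 3451, 3804 and 4007 of all genes and 16, 15 and 16 of the pathway genes, and limma-voom 8, 6 and 11 of the 49 genes, 1446, 1146 and 1890 of all genes and 6, 5 and 9 of the pathway genes. With only the compared groups fitted there were 0, 7 and 14 of the 49 genes, 26, 1739 and 2752 of all genes and 0, 4 and 11 of the pathway genes. Leaving out 1 library at a time gave ranges of 0 to 3, 0 to 5, 0 to 10 of the 49 genes, 31 to 313, 0 to 1240, 0 to 2080 of all genes and 0 to 1, 0 to 6, 0 to 9 of the pathway genes; where a group kept 1 library, that library was assumed to vary like the other groups. Without replicate 1 of both tMCAO brain and tMCAO blood there were 20, 19 and 26 of the 49 genes, 3609, 3850 and 4979 of all genes and 12, 14 and 16 of the pathway genes, with 1 library in each of these groups. With T cell identity genes as the scale there were 0, 0 and 33 of the 49 genes, 412, 1452 and 8684 of all genes and 1, 3 and 23 of the pathway genes, and relative to the median of all genes the medians of the 49 were 0.79, 0.12 and 0.87. The all-gene splits moved from 588 higher and 228 lower to 378 and 34, from 722 and 524 to 1449 and 3, and from 1335 and 437 to 8627 and 57. On that scale the log2 change turned to 1.14 for Irf7 and 0.70 for Sting1 in tMCAO blood against sham blood, and to 2.52 for Samhd1, 0.18 for Ube2l6, 1.49 for Gbp4 and 1.80 for Ikbke in tMCAO brain against sham blood. Irgm1, which was not called, turned to -0.91 in the last comparison without both replicates 1. The replicate numbers were not shown to pair libraries. Deviations of same-numbered libraries correlated at 0.36 for tMCAO brain with tMCAO blood, where replicate 1 had the lower Foxp3 in both groups. Whether that value reflects pairing was not tested. For tMCAO brain and tMCAO blood with sham blood the values were -0.06 and -0.11. The fit with the replicate block called 7, 7 and 14 of the 49 genes, 803, 1318 and 1977 of all genes and 3, 3 and 10 of the pathway genes. Without Ifi27l2a the summed share of the raw total was 0.845% and 0.563% in tMCAO brain. This ended the overlap with tMCAO blood by a narrow margin, but the overlap remained in CPM, as given above. With all 49 genes kept, the brain libraries stood at 1.1% and 0.626% of the TMM-scaled total. Those of blood after tMCAO stood at 0.725% and 0.680%, so the groups overlapped. The summed share moved in tMCAO blood replicate 1 to 0.557% without Ifi27l2a, in tMCAO blood replicate 2 to 0.680% of the TMM-scaled total and 0.559% without Ifi27l2a, in sham blood replicate 1 to 1.4% without red cell genes in the total, 1.16% of the TMM-scaled total and 1.01% without Ifi27l2a, and in sham blood replicate 2 to 1.4% and 1.07% without red cell genes and Ifi27l2a. Over 111 gene results and 15 settings, 165 called values no longer passed, 121 others passed, and 7 values with a call under either setting changed sign as given above. With values that had no call under either, the sign changes numbered 70, of which 27 were on the T cell scale. The cause of these differences between settings was not tested. With 2 libraries a group, precision is limited by the spread between libraries. How far depth limits it as well, as for genes with few counts, was not tested.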

Other observations

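Some of the 49 genes lie next to each other, and neighbours did not always have like levels. Rsad2 and Cmpk2, which encodes a mitochondrial nucleotide kinase, lie 12751 bp apart on opposite strands of chromosome 12. Cmpk2 was at 46.5 and 28.6 CPM in the brain, 16 and 25.7 in blood after tMCAO and 22.7 and 8.37 in sham blood, with both brain libraries highest, whereas both sham blood libraries were highest for Rsad2. Oasl2 and Oasl1 lie 11005 bp apart on chromosome 5, and both had their highest values in the brain libraries. Ifit2 and Ifit3, 7111 bp apart on chromosome 19, both had their highest value in tMCAO brain replicate 1 and their next in tMCAO brain replicate 2. These pairs were chosen after their values were seen and were not tested.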
